A study of Mus musculus with 4 samples.

Results

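Type IV collagen is the network-forming collagen of basement membranes, and its 6 chains, encoded by Col4a1 to Col4a6, were followed here through the cell types of the embryonic mouse nose. The members were the 6 features of the count matrices that carry these symbols, out of 32285 features, and they were read in the 13739 cells that passed a minimum of 500 genes and a maximum of 10% mitochondrial UMIs. The family was chosen by its measured levels, since chain usage across cell types and the levels of the chains in control and mutant libraries had been seen in these data. Levels by cell type are therefore a description without a test, and the p-values between groups are no independent evidence.

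The cells come from dissected noses of E14.5 embryos, read by droplet single-cell RNA sequencing, in which each captured molecule carries a unique molecular identifier (UMI). The 2 mutant libraries carry the Cre recombinase transgene Tg(Sox10-cre)1Wdr, and the series design gives their other alleles as yap flox/WT and taz flox/flox, so a wild-type copy of Yap remains. The 2 control libraries are labelled C57Bl/6J in the sample labels, whereas the series design gives them as yap flox/flox and taz flox/flox with no Cre named, and the sources used here leave the difference unresolved. Sox10 drives the Cre in neural crest cells and their descendants, so endothelial cells and macrophages of the same noses are not its target. Nothing in the sources used here says how many embryos went into each library, so the p-values measure the spread between these libraries.

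Collagen IV chains assemble as trimers inside the cell, and the trimers join into a network outside it. The Col4a1 and Col4a2 products form the trimer found in nearly every basement membrane, the Col4a5 and Col4a6 products join in a trimer of epithelial and smooth muscle basement membranes, and the Col4a3 and Col4a4 products join that of Col4a5 in membranes such as that of the kidney glomerulus. In the nose, basement membranes lie under the surface and sensory epithelia, around vessels and around the glia that wrap the olfactory nerve.

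The libraries held 4075, 2474, 2995 and 4195 cells in the order control 1, control 2, mutant 1 and mutant 2, an order kept throughout, with 35331450, 19767873, 29121739 and 26874057 UMIs. Median depth lay between 5282 and 8549 UMIs per cell, and any 2 libraries shared 4 to 8 barcodes, none with the same UMI total. Both targeted genes were still read over the whole nose: Yap1 stood at 65.0, 65.2, 56.4 and 55.96 CPM (UMI counts scaled to the same total in every library or gate), and Wwtr1, which encodes TAZ, at 118, 145, 123 and 132 CPM. A 3-prime count can include transcripts that lack a floxed exon, so these levels do not check recombination. Xist was at 909.9 to 1424.5 CPM in the 4 libraries. The sum of 4 Y-linked genes was at 0.0566, 0.101, 0.240 and 0.260 CPM, near 0 throughout but higher in both mutants, and its part in the values of the X-linked chains Col4a5 and Col4a6 was not tested.

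The 6 genes lie as 3 head-to-head neighbours in the mouse genome (GENCODE M21, GRCm38). Col4a1 (ENSMUSG00000031502, chromosome 8, 11198423 to 11312826, minus strand) and Col4a2 (ENSMUSG00000031503, chromosome 8, 11312805 to 11449287, plus strand) have annotated starts 21 bases apart, so that their first exons overlap. Col4a3 (ENSMUSG00000079465, chromosome 1, 82586921 to 82722059) and Col4a4 (ENSMUSG00000067158, chromosome 1, 82448423 to 82586849) start 72 bases apart. Col4a5 (ENSMUSG00000031274, chromosome X, 141475385 to 141689234) and Col4a6 (ENSMUSG00000031273, chromosome X, 141165403 to 141474076) start 1309 bases apart. Noncoding or antisense models overlap Col4a1, Col4a2 and Col4a3, and pseudogene models overlap Col4a5 and Col4a6. Whether counting used strand is not given in the sources used here, so reads of such overlapping models may not be separated.

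Start regions of the 4 abundant chains are shown because these head-to-head neighbours also followed each other across gates, as described below. The part of the start regions in that likeness was not tested, and the windows of Col4a5 and Col4a6 are not shared. They are given 5′ to 3′ on the strand of each gene, from RefSeq on GRCm38.p6, where 5 of the 6 members had an entry. Capitals mark matches to the CCAAT box (CCAAT or ATTGG) and the GC box (GGGCGG or CCGCCC), searched on both strands in the 250 bases before each start. The TEAD core letters (GGAATG or CATTCC), the motif of the partners of YAP and TAZ, were searched as well, and no match overlapped another. Col4a1 and Col4a2 lie so close that the window of each lies in exons of the other, so only the 30 bases around their CCAAT boxes are printed, chr8:11312954-11312983 on the minus strand and chr8:11312761-11312790 on the plus strand, the latter opening within a GC box. For Col4a5 the 216 bases outside the annotated transcript are printed (chrX:141475169-141475384, plus strand), and for Col4a6 the whole window (chrX:141474077-141474326, minus strand).
Col4a1: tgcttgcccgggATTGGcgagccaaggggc
Col4a2: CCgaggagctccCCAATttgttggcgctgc
Col4a5: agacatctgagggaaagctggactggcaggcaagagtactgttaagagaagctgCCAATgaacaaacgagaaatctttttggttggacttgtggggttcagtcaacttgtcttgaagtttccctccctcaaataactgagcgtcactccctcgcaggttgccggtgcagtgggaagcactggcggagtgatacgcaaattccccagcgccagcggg
Col4a6: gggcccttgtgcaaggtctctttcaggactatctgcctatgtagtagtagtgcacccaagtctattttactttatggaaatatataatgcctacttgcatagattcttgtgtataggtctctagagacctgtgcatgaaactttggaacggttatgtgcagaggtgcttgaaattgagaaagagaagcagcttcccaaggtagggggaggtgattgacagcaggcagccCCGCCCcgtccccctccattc
The Col4a1 window held 1 CCAAT box, whose first letter lay 145 bases before the start, and no GC box. The Col4a2 window held 1 CCAAT box 32 bases before its start and GC boxes 192 and 48 bases before it. The Col4a5 window held a CCAAT box at 196 bases and, beyond the printed end, a GC box at 30 bases, and the Col4a6 window a GC box at 21 bases. Over 32851 promoter windows of the same length, 33.8% held a CCAAT box, 32.7% a GC box and 12.6% the TEAD core, which was in none of these 4 windows. No match says only that these letters are not in the window, and a match is a string of letters and was not tested as a site.

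Cells were assigned to gates by marker genes. A gate needed at least 3 distinct detected markers of its list and fewer than 3 of any other non-mesenchymal list. Cells of several epithelial lists were given to the list they covered best. Mesenchymal markers did not keep a cell out of another gate, and the mesenchymal gates took only cells that passed no other list. In all, 11 gates had at least 20 cells in every library, from 124 glial cells to 7295 other mesenchymal cells over the 4 libraries. A further 835 cells (6.08%) passed several non-mesenchymal lists and 224 passed no list, and both sets were left out of the gates. The cells that passed several lists still held 16.1% to 21.7% of each library's Col4a1 UMIs.

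Col4a1 and Col4a2, the chains of the ubiquitous trimer, were highest in the cells of the vessel wall. Col4a1 stood at 1057, 913, 1471 and 1115 CPM in endothelial cells and at 1073, 1140, 704 and 836 CPM in mural cells, the pericytes and smooth muscle around vessels. Col4a2 stood at 703, 597, 877 and 688 CPM in endothelial cells and at 663, 734, 496 and 456 CPM in mural cells. The endothelial and mural ranges overlapped for both chains, so their order does not stand beyond the spread, and both lay above every other gate with 20 cells per library.

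Below the vessels came the mesenchymal cells in which Slc6a13 or Trpm3 was detected, with 129 to 390 CPM of Col4a1, and the glia, with 199 to 316 CPM, and these ranges overlapped as well. Cartilage (99.5 to 130 CPM), other mesenchymal cells (107 to 128 CPM) and neuronal cells (72.0 to 122 CPM) followed with overlapping ranges. Muscle cells, of which a library held 14 to 30, were at 102 to 187 CPM. Bone cells held 45.5 to 87.8 CPM and keratinocytes, the basal cells of the surface epithelium, 54.7 to 69.5 CPM. Simple epithelial cells had 15.4 to 32.5 CPM, and macrophages had 1.35 to 10.6 CPM, read here as the level that free RNA can give.

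Because depth differed between gates, detection was also read after thinning each cell to 3000 UMIs. Col4a1 then had a UMI in 73.0% to 85.0% of endothelial cells, 24.1% to 25.6% of other mesenchymal cells and 15.9% to 16.8% of keratinocytes. In macrophages it had a UMI in 0 of 68, 0 of 47, 0 of 42 and 0 of 78 cells, which allows up to 4.41%, 6.38%, 7.14% and 3.85% of cells with a UMI at this thinned depth, counting error only. Unthinned, the shares were 85.5% to 90.2% in endothelial cells, at median depths of 7286 to 14132 UMIs, and 1.22% to 5.08% in macrophages, at 7368 to 10052 UMIs. The endothelial share lay above the macrophage share at either depth in every library.

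**Figure D1:**
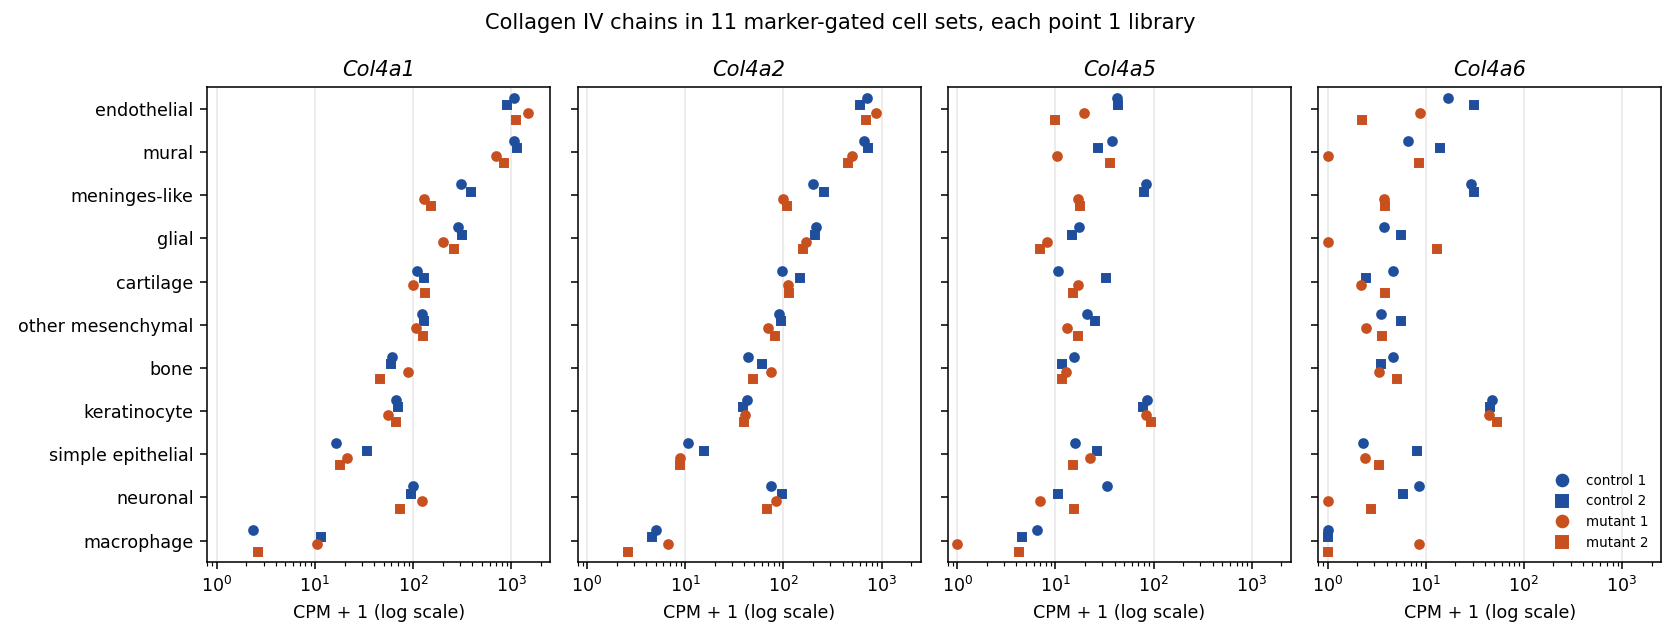
Level of the 4 abundant collagen IV chains in 11 gates, as CPM plus 1 on a log axis, each point 1 library (blue control, orange mutant). Endothelial and mural cells lead for Col4a1 and Col4a2, whereas keratinocytes, at 77.1 to 92.4 CPM of Col4a5 in all 4 libraries, lead for Col4a5 together with the control libraries of the gate called meninges-like on the axis (79.1 and 83.1 CPM).

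The X-linked chains followed another order. In keratinocytes Col4a5 stood at 83.8, 77.1, 82.8 and 92.4 CPM and Col4a6 at 46.5, 44.5, 42.7 and 52.0 CPM. The control libraries of the Slc6a13 or Trpm3 mesenchymal gate were as high for Col4a5, at 83.1 and 79.1 CPM, and lower for Col4a6, at 27.8 and 30.2 CPM. All other gates with 20 cells per library stayed at or below 42.6 CPM of Col4a5 and 29.9 CPM of Col4a6, the endothelial cells of control 2 in both cases. In macrophages Col4a5 was at 0 to 5.41 CPM and Col4a6 at 0 to 7.50 CPM, so the Col4a6 level of cartilage, bone and other mesenchymal cells, at 1.21 to 4.62 CPM, was not separable from free RNA. Other mesenchymal cells had 12.1 to 24.0 CPM of Col4a5, above the macrophages in every library.

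Col4a5 and Col4a6 together made up 54.7%, 52.8%, 57.1% and 57.9% of the collagen IV UMIs of keratinocytes and 36.8%, 40.9%, 43.8% and 39.6% of those of simple epithelial cells. They made up 3.12%, 4.58%, 1.11% and 0.556% in endothelial cells and 9.52%, 11.4%, 7.12% and 8.23% in other mesenchymal cells. Among the 11 gates, every keratinocyte library lay above every library of the others, and simple epithelial libraries lay above all remaining ones but those of macrophages, whose shares of 18.2% to 50% rest on 4 to 12 UMIs. Suprabasal cells, too few to be among these gates, spread from 14.3% to 69.2% on 7 to 18 UMIs. These shares rest on 212 to 594 collagen IV UMIs per library in keratinocytes but only 22 to 73 in simple epithelial cells, where the exact 95% interval reached from 20.7% to 63.6% in control 2. Of the X-linked pair, simple epithelial cells held mainly Col4a5, with 7 to 30 UMIs per library against 2 or 3 of Col4a6.

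**Figure D2:**
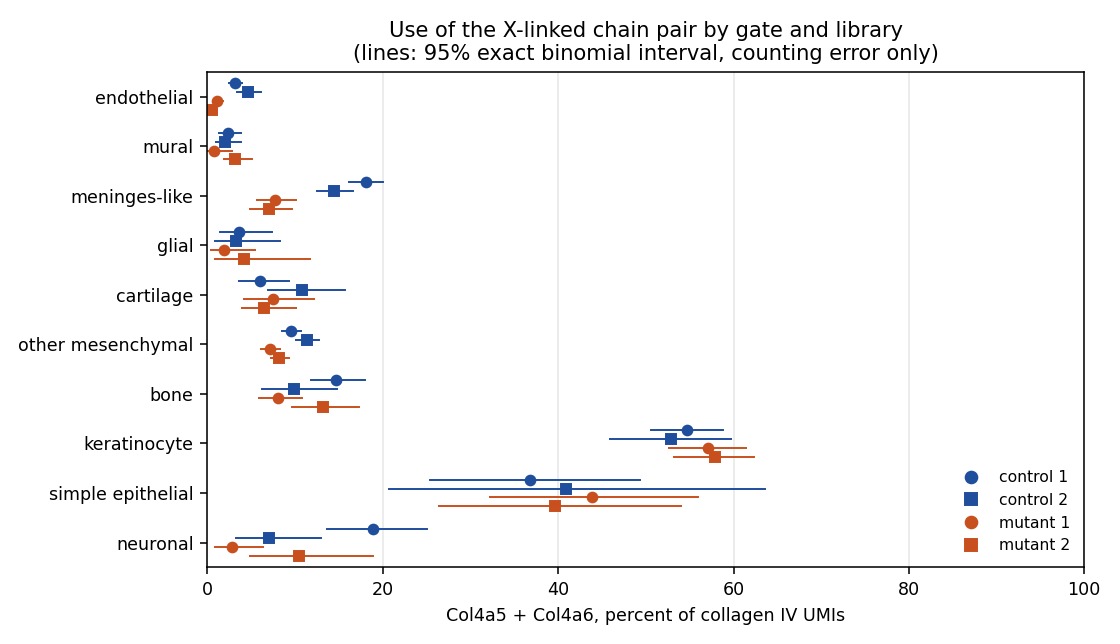
Share of collagen IV UMIs that came from Col4a5 and Col4a6, in percent, by gate and library, blue for control and orange for mutant, with exact 95% binomial intervals that cover counting error only. Keratinocytes lie between 52.8% and 57.9%, simple epithelial cells between 36.8% and 43.8%, and the 8 other plotted gates lie lower, at most at 18.9%; macrophages, with 4 to 12 collagen IV UMIs per library, are not plotted.

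The ratio of Col4a2 to Col4a1 UMIs was 0.665, 0.655, 0.596 and 0.617 in endothelial cells and 0.737, 0.732, 0.645 and 0.650 in other mesenchymal cells. In cartilage it was 0.898, 1.13, 1.11 and 0.877, in bone 0.723 to 1.06 and in neuronal cells 0.683 to 1.02, so that bone and neuronal cells overlapped cartilage. These are ratios of counts within a library and not of protein, and the 3-prime capture of each transcript may differ. No cartilage library overlapped an endothelial or other mesenchymal library.

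Over the 44 combinations of the 11 gates and 4 libraries, Col4a1 correlated with Col4a2 at a Pearson r of 0.989 on log2(CPM + 10), the highest of 7517 genes. The next were Sptbn1 (0.917), a spectrin of the membrane skeleton, Lamb1 (0.913), a laminin chain of the same membranes, Gng11 (0.908) and Igfbp7 (0.905). Col4a5 correlated best with Col4a6, at 0.839, followed by the gap junction gene Gjb2 (0.734), Wls (0.733), which carries Wnt proteins to the cell surface, Svil (0.709) and the gap junction gene Gja1 (0.708). Col4a1 and Col4a5 correlated at only 0.300. Gates of 1 library share its preparation and depth, so these values describe likeness and carry no p. The likeness ran along the head-to-head neighbours whose promoters are printed above, and the part of the promoters in it was not tested. Col4a3 and Col4a4 were too low to enter this ranking.

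Col4a3 and Col4a4 were close to absent. Col4a4 had 33, 23, 23 and 16 UMIs in 29, 22, 21 and 15 cells, and other mesenchymal cells held 30.3% to 56.5% of them. Col4a3 had 13, 8, 10 and 30 UMIs in 10, 2, 7 and 7 cells. Single cells held many of the Col4a3 UMIs: 6 of 8 came from 1 cell in control 2, 4 of 10 from 1 cell in mutant 1, and 17 and 7 of 30 from 2 cells in mutant 2. The cell with 17 UMIs carried both endothelial and macrophage markers and 58 Col4a1 UMIs. None of these 4 cells had a Col4a4 UMI, and at most 1 cell per library had a UMI of both chains. Over the whole nose Col4a4 stood at 0.934, 1.16, 0.790 and 0.595 CPM, lower in both mutants, and Col4a3 at 0.368, 0.405, 0.343 and 1.12 CPM, with overlap. Their log2 changes were -0.62 ± 0.36 and 0.87 ± 0.65 (edgeR adjusted p = 0.909 for both), and neither passed.

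The comparison of control with mutant libraries asked how deleting Taz and a copy of Yap in Sox10-expressing cells and their descendants bears on these chains. Over the whole nose, Col4a1 stood at 173, 190, 143 and 166 CPM, Col4a2 at 118, 132, 96.1 and 106 CPM, Col4a5 at 30.6, 29.3, 19.3 and 20.9 CPM and Col4a6 at 9.88, 9.92, 5.63 and 6.40 CPM. Both mutant libraries lay below both controls for all 4 chains, as they did for 13% of the 18080 genes tested. The fitted log2 changes, mutant over control with SE, were -0.27 ± 0.11 for Col4a1, -0.35 ± 0.11 for Col4a2, -0.61 ± 0.094 for Col4a5 and -0.76 ± 0.15 for Col4a6. None passed the edgeR quasi-likelihood test adjusted over all genes (each adjusted p = 0.909), in a comparison where 0% of genes passed (percent called: 0, with 4.88% at an unadjusted p under 0.05 and 30 genes passing with DESeq2). In bulk sums of this kind fewer cells of a type and less RNA per cell cannot be told apart.

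Without any cell that had a UMI of Slc6a13 or Trpm3, all 4 fitted differences were closer to 0. The cells removed numbered 668, 352, 470 and 495, of which 349, 206, 266 and 294 were in the mesenchymal gate described below. The rest were in other gates or in none. Col4a1 then stood at 162, 164, 140 and 167 CPM and Col4a6 at 6.94, 6.08, 5.98 and 6.74 CPM, and the groups overlapped for both. Col4a2 (113, 115, 94.1 and 106 CPM) and Col4a5 (23.4, 22.9, 19.7 and 20.97 CPM) stayed lower in both mutants, as 12.5% of the 17422 genes tested did. The log2 changes were -0.13 ± 0.11 for Col4a1, -0.23 ± 0.095 for Col4a2, -0.23 ± 0.099 for Col4a5 and -0.08 ± 0.18 for Col4a6, with edgeR adjusted p between 0.884 and 0.960. Again 0 genes passed (5.26% at an unadjusted p under 0.05, and 28 genes with DESeq2). For Col4a1 the direction depended on how the removed cells were chosen. When cells with at least 3 of 10 other meningeal genes were removed instead, its log2 change was 0.12.

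Cells with Slc6a13 or Trpm3 made up 16.4%, 14.2%, 15.7% and 11.8% of all cells, and the groups overlapped, with a difference of -1.56 percentage points (mutant minus control, exact two-sided permutation test, p = 0.667, the smallest possible being 0.333). Without mutant 2 the difference was 0.38 points. Cells with at least 3 of the 10 other meningeal genes made up 4.15%, 7.52%, 2.14% and 2.19% of all cells, without overlap and with a difference of -3.67 points (exact two-sided permutation test, p = 0.333, the smallest possible). Giving every library the same makeup of gates gave whole-nose log2 ratios of -0.13 for Col4a1, -0.22 for Col4a2, -0.63 for Col4a5 and -0.81 for Col4a6, against -0.23, -0.31, -0.57 and -0.72 from the same sums with each library's own makeup.

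All mesenchymal cells together, the cells with Slc6a13 or Trpm3 included, showed the same direction for every abundant chain. Col4a5 stood at 30.6, 31.6, 12.8 and 15.97 CPM and Col4a6 at 6.78, 8.15, 1.67 and 2.64 CPM. The Col4a6 values of control 1 and both mutants lay within the macrophage range of 0 to 7.50 CPM. Both chains were lower in both mutants, with log2 changes of -1.15 ± 0.13 and -1.83 ± 0.27 and edgeR adjusted p of 0.0897 and 0.164, where 0.0128% of genes passed and 15.7% were lower in both mutants. Col4a1 (-0.45 ± 0.11, adjusted p = 0.377) and Col4a2 (-0.54 ± 0.10, adjusted p = 0.255) were lower in both mutants as well. Col4a2, Col4a5 and Col4a6 passed with DESeq2 (adjusted p = 0.0289, 7.72e-05 and 0.0108), where 59 of 14498 genes passed. All 4 chains passed with no filter on low counts, where 607 of 24455 genes passed, against 2 of 15576 in the fit as described. Calls also changed with libraries left out, so the call depends on the tool, the filter and the libraries kept.

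In other mesenchymal cells, where neither Slc6a13 nor Trpm3 was detected, Col4a1 stood at 122, 128, 107 and 124 CPM and Col4a6 at 2.49, 4.62, 1.45 and 2.60 CPM, and the groups overlapped. Col4a2 (89.9, 93.8, 68.9 and 80.9 CPM) and Col4a5 (19.9, 24.0, 12.1 and 15.9 CPM) were lower in both mutants, as 14.1% of genes were. Their log2 changes were -0.33 ± 0.11 and -0.69 ± 0.17, and neither passed (edgeR adjusted p = 0.614 and 0.564; percent called: 0, with 7.26% of genes at an unadjusted p under 0.05). With libraries left out Col4a5 stayed lower in the mutants, in the range given at the end, though its side of the threshold changed.

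The mesenchymal cells with Slc6a13 or Trpm3, numbering 349, 206, 266 and 294, held less of each of the 4 abundant chains in the mutants. Col4a1 stood at 304, 390, 129 and 149 CPM and Col4a2 at 199, 255, 97.5 and 108 CPM. Col4a5 stood at 83.1, 79.1, 16.1 and 16.6 CPM and Col4a6 at 27.8, 30.2, 2.75 and 2.86 CPM. The groups did not overlap for any of the 4 chains, and the X-linked chains differed most. For Col4a6 the mutant values rest on 7 and 5 UMIs and lie within the macrophage range of 0 to 7.50 CPM. The size of its change is therefore a ratio to a level that free RNA can give. The log2 changes were -1.36 ± 0.15 for Col4a1 (edgeR adjusted p = 0.000367), -1.18 ± 0.15 for Col4a2 (adjusted p = 0.00122), -2.35 ± 0.18 for Col4a5 (adjusted p = 3.42e-05) and -3.38 ± 0.34 for Col4a6 (adjusted p = 0.00022), so that all 4 fell. In this gate 1.43% of 11543 genes passed and 17.3% were lower in both mutants without overlap. The call for Col4a2 was lost without mutant 1 (adjusted p = 0.0875) and with 2 markers per gate (adjusted p = 0.0573). With the gate set by at least 3 of 10 other meningeal genes, a choice made after the values were seen, Col4a5 and Col4a6 lost theirs (log2 -2.15 and -3.15, adjusted p = 0.109 and 0.0505).

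Some marker genes of this gate differed between the groups, so it is called by its rule and not by a cell type. Other cells entering the gate and lower levels in the same cells cannot be told apart here. Its 2 defining genes were unevenly present: Trpm3 stood at 495, 496, 369 and 562 CPM, whereas Slc6a13, a transporter of the meninges, stood at 59.5, 59.1, 8.26 and 20.6 CPM. Of 10 further meningeal genes, 8 were lower in both mutants and none higher, where 17.3% of all genes tested were lower in both. The sum of the 10 was 446, 529, 186 and 262 CPM, and Slc47a1 was at 0 in all 4 libraries. The part of these markers in the result was not tested by a model, but the gate can be split by them.

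Slc6a13 was detected in 48, 41, 8 and 16 of these cells, or 1.18%, 1.66%, 0.267% and 0.381% of all cells of the library. In the controls these few cells, 13.8% and 19.9% of the gate, supplied 58.5% and 77.1% of its Col4a1 UMIs and 79.4% and 72.4% of its Col4a5 UMIs. They held 1050 and 1402 CPM of Col4a1, the level of the vascular gates, and 390 and 267 CPM of Col4a5, above every keratinocyte library. In the mutants the Slc6a13 cells held 3 and 30 Col4a1 UMIs (56.6 and 245 CPM) and 5 and 6 Col4a5 UMIs (94.3 and 49.0 CPM). With fewer than 20 such cells per mutant library no test was made. Of the 10 meningeal genes, 5 were lower and 2 higher in both mutants in the Slc6a13 cells, and their sum was 1604, 1483, 1094 and 1314 CPM. Among them Tbx18 stood at 327, 300, 113 and 106 CPM and Ptgds at 38.3, 65.9, 245 and 408 CPM. The mutant values rest on 8 and 16 cells, and no share over all genes was computed for these cells.

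The remaining cells of the gate, with Trpm3 and no Slc6a13, numbered 301, 165, 258 and 278. In them Col4a1 stood at 152, 114, 131 and 142 CPM, and the groups overlapped. Col4a2 was at 106, 112, 96.0 and 98.5 CPM, Col4a5 at 20.7, 27.8, 14.5 and 14.2 CPM and Col4a6 at 4.59, 10.6, 2.41 and 2.46 CPM, each lower in both mutants, as 15.7% of 11236 genes were. The log2 changes were -0.02 ± 0.15 for Col4a1, -0.20 ± 0.14 for Col4a2 and -0.75 ± 0.28 for Col4a5, and none passed (edgeR adjusted p = 0.989, 0.795 and 0.412; percent called: 0.285), in a split chosen after the values were seen. For Col4a1 the whole gate's change of -1.36 stood beside -0.02 in these cells.

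**Figure D3:**
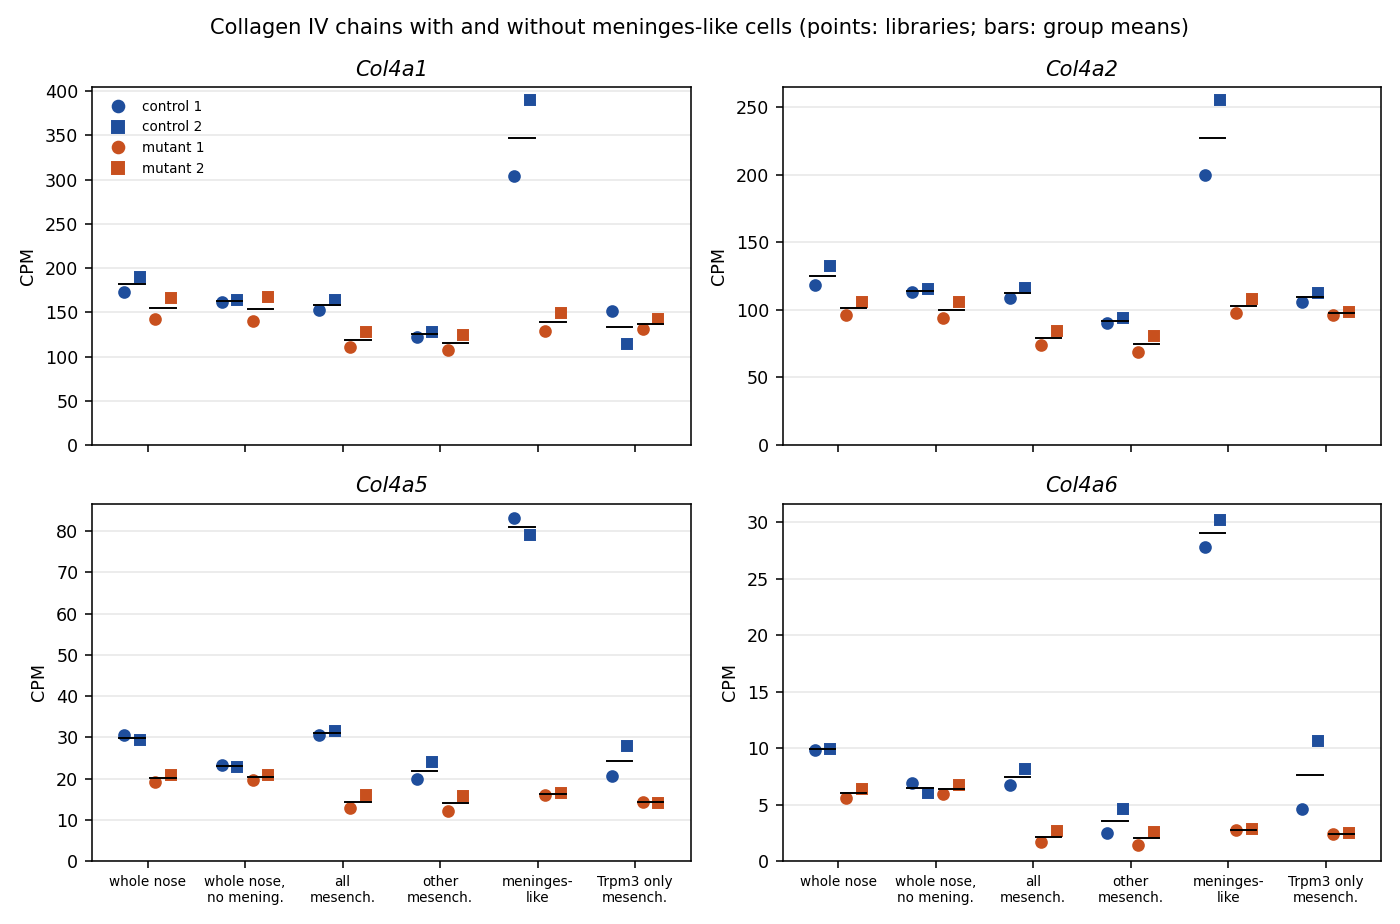
Level in CPM of the 4 abundant chains in each library (points, blue control and orange mutant) and group means (short lines) for the whole nose and mesenchymal cells, with and without the cells in which Slc6a13 or Trpm3 was detected, and for the Trpm3 cells that lack Slc6a13. The control libraries stand at 304 and 390 CPM of Col4a1 in the gate called meninges-like on the axis, and overlap the mutants in the Trpm3 cells without Slc6a13.

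The cells that supplied each chain also differed between groups. Of all Col4a6 UMIs of a library, keratinocytes supplied 33.2%, 20.9%, 60.4% and 57.0%, and mesenchymal cells with Slc6a13 or Trpm3 supplied 20.9%, 24.0%, 4.27% and 2.91%. For Col4a5 the shares of the latter were 20.2%, 21.2%, 7.30% and 5.15%. Col4a1 came from more cells, with 15.4% to 22.9% from endothelial cells and 25.7% to 33.1% from other mesenchymal cells. The keratinocyte share of Col4a6 was higher in both mutants while its level in keratinocytes overlapped between groups. Keratinocytes themselves made up 5.08%, 3.48%, 6.58% and 6.17% of cells, also more in both mutants, and the part of their number in these shares was not tested.

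In an interaction test within libraries, the change in the mesenchymal cells with Slc6a13 or Trpm3 differed from that in other mesenchymal cells for 3 of the 4 chains, where 0.426% of 14318 genes passed. The log2 difference of effects was -1.19 ± 0.12 for Col4a1 (edgeR adjusted p = 0.000468), -0.83 ± 0.13 for Col4a2 (0.0118), -1.65 ± 0.23 for Col4a5 (0.00386) and -2.56 ± 0.54 for Col4a6 (0.0631). With 2 markers per gate none of the first 3 passed (adjusted p = 0.225, 0.626 and 0.231). Some marker genes of this gate differed between the groups as given above.

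Outside the mesenchyme no chain passed the edgeR test in the fit as described, though some calls changed with the settings given here and at the end. In endothelial cells (83, 45, 41 and 70), Col4a1 was higher in both mutants (log2 0.38 ± 0.21, edgeR adjusted p = 0.778; percent called: 0.311), as 18% of genes were, and Col4a2 overlapped (log2 0.25 ± 0.21). With 2 markers per gate both directions turned, to -0.26 and -0.32. Col4a5 stood there at 40.9, 42.6, 18.6 and 8.83 CPM and Col4a6 at 15.9, 29.9, 7.73 and 1.26 CPM, both lower in both mutants, as 17.9% of genes were (log2 -1.64 ± 0.40 and -2.33 ± 0.66, adjusted p = 0.115 and 0.227), on 1 to 49 UMIs per library. Both passed with no filter on low counts (edgeR adjusted p = 0.00674 and 0.0110), where 169 of 18138 genes passed, against 26 of 8352 in the fit as described. Without mutant 1 their side of the threshold changed as well. The 10 meningeal genes summed there to 164, 386, 88.1 and 136 CPM, and their part in the result was not tested.

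In mural cells (39, 25, 22 and 47), Col4a1 (1073, 1140, 704 and 836 CPM) and Col4a2 (663, 734, 496 and 456 CPM) were lower in both mutants, as 16.8% of genes were. Their log2 changes were -0.54 ± 0.18 and -0.58 ± 0.20, with edgeR adjusted p of 0.282 and 0.323 where 0.364% of genes passed. Col4a1 passed with 4 markers per gate (adjusted p = 0.0308). The meningeal genes summed to 402, 583, 236 and 204 CPM in this gate, and their part was not tested.

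Glia, descendants of the neural crest in which Sox10 was at 204 to 379 CPM, held 287, 316, 199 and 259 CPM of Col4a1 and 214, 211, 170 and 156 CPM of Col4a2. Both chains were lower in both mutants, as 14.5% of genes were, on 26 to 105 UMIs per library from 38, 26, 39 and 21 cells. The log2 changes were -0.49 ± 0.24 and -0.43 ± 0.25 (edgeR adjusted p = 0.903 for both; percent called: 0.038). 

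Keratinocytes, with the highest share of X-linked chains among the 11 gates, showed no separation of the groups for Col4a2, Col4a5 or Col4a6. The log2 changes were 0.09 ± 0.14 for Col4a5 and 0.02 ± 0.17 for Col4a6 (edgeR adjusted p = 0.963 and 1.00; percent called: 0.00889). Col4a1 was lower in both mutants, as 16.9% of genes were, by a narrow margin (65.4, 69.5, 54.7 and 65.3 CPM, log2 -0.18 ± 0.16, adjusted p = 0.895). With 2 markers per gate Col4a1 and Col4a2 turned to 0.17 and 0.48 in keratinocytes. Against other mesenchymal cells the change of Col4a5 differed by 0.76 ± 0.21 (edgeR adjusted p = 0.581), which did not pass. Differences of effects from other mesenchymal cells passed for no chain in endothelial, mural, glial or keratinocyte cells, where 0.231%, 0.535%, 0.169% and 0.0135% of genes passed. Cartilage, bone, neuronal and simple epithelial cells had 0 chains past the edgeR test and none at an unadjusted p under 0.05, where 0.0107%, 0%, 0% and 0% of genes passed and, in the last 3, 4.78%, 5.9% and 2.74% had an unadjusted p under 0.05.

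**Figure D4:**
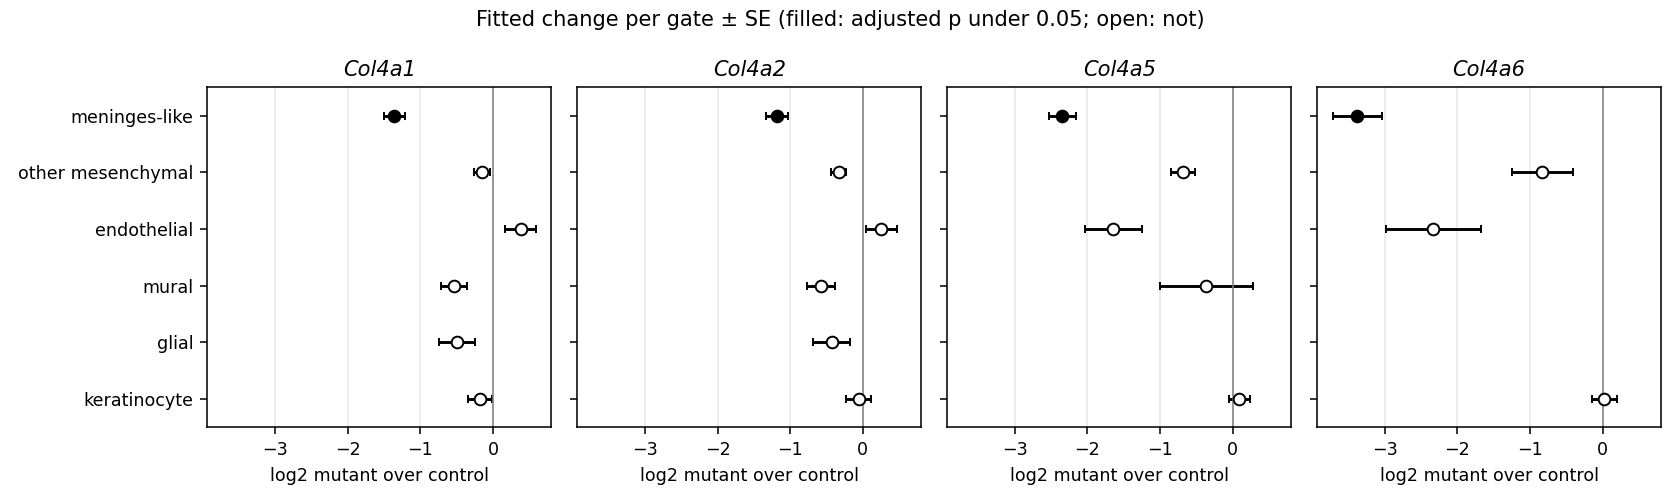
Fitted log2 change, mutant over control, with its SE, for the 4 abundant chains in 6 gates (filled points passed the edgeR test at an adjusted p under 0.05; chains too low to fit are left blank). All 4 chains passed in the gate called meninges-like on the axis, from -1.18 for Col4a2 to -3.38 for Col4a6, and none passed elsewhere.

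The proteins that share the basement membrane with collagen IV were read from 5 lists. Among 28 partners (laminins, nidogens, proteoglycans and related proteins), 27 were tested in all mesenchymal cells, 20 of them below 0 with a median log2 change of -0.14 against 0.00 over all genes, and 0 passed. The largest changes were in Lama1, a laminin chain of early and pial basement membranes (19.96, 28.3, 6.90 and 9.60 CPM, log2 -1.58 ± 0.22), and in Col18a1, a basement membrane collagen (13.3, 15.9, 3.68 and 7.69 CPM, log2 -1.40 ± 0.30). In the mesenchymal cells with Slc6a13 or Trpm3, where some marker genes differed between the groups as given above, 21 partners were tested. Their median was -0.47 against 0.00 over all genes. Of these partners 6 fell and none rose, where 1.43% of 11543 genes passed in either direction. The 6 were Lama1 (-3.28 ± 0.29), Col18a1 (-3.00 ± 0.27), Lamc3 (-2.30 ± 0.36), Nid2 (-1.38 ± 0.17), Egflam (-0.97 ± 0.19) and Nid1 (-0.70 ± 0.15), of which the last 4 are named after their values were seen. In mural cells, where 0.364% of genes passed, Col18a1 fell as well (81.5, 94.97, 14.2 and 25.2 CPM, log2 -2.06 ± 0.44, edgeR adjusted p = 0.0460), also named after its value was seen.

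Genes that build, cross-link, bind or degrade collagen IV did not pass in whole nose, all mesenchymal cells or other mesenchymal cells, nor in the cells with Slc6a13 or Trpm3. Of 25 genes of collagen synthesis, folding and export, the largest changes in all mesenchymal cells were in Colgalt2, a collagen glycosyltransferase (log2 0.32 ± 0.20), and Creb3l1 (-0.31 ± 0.15). Among 6 cross-linking genes, all below 0 in all mesenchymal cells (median -0.12), Lox, the lysyl oxidase of fibrillar collagens and elastin, stood at 141, 176, 92.2 and 116 CPM (-0.65 ± 0.15), and Loxl3 changed by -0.50 ± 0.22. Among the receptors, 7 of 10 tested were below 0 (median -0.16); the collagen receptor integrin Itga1 changed by -0.68 ± 0.18 and Adgrg6, an adhesion receptor that binds collagen IV, by -0.63 ± 0.18. Of the turnover genes, Timp1 and Timp3, inhibitors of matrix proteases, changed by -0.34 ± 0.16 and 0.18 ± 0.11, and the list's median was -0.02. None of these values passed the edgeR test adjusted over all genes.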

How the data were processed

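The deposited matrices hold UMI counts per gene and barcode of 4 whole-nose libraries (2 control, 2 mutant), with 3-prime chemistry per the labels' protocols. The authors made these counts with Cell Ranger; the submitters' processing notes name version 4 and Seurat 4.3.0 on mm10, whereas the file headers name 8.0.1. Whether intronic reads were counted is not given in the sources used here. Protocols name more than 1 sequencing provider without linking libraries to them, so a batch could not be tested; a further sample they mention is not analysed here. Cells were papain-dissociated and frozen.

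Barcodes under 500 genes or over 10% mitochondrial UMIs were dropped. Gates needed 3 distinct markers of 1 list. The automatic doublet call of Scrublet (scanpy 1.11.5) marked 0 to 3 cells per library and had not worked. Cells passing several non-mesenchymal lists were left out of gates as described, and an alternative removed the 149, 56, 87 and 163 highest scores. Sums of counts per library and gate, for gates with 20 cells per library, were fitted in edgeR 4.0.16 under R 4.3.3 by its quasi-likelihood test after filterByExpr and TMM scaling, with Benjamini-Hochberg adjustment over all genes and a threshold of 0.05. SE is the log2 change over the square root of F. DESeq2 1.42.0 and further alternatives are given at the end. Shares carry exact 95% intervals, and limits for a 0 use 3 counts. The fit was tested on data simulated for the whole nose, other mesenchymal and endothelial cells only, at a fixed spread between libraries. The other gates were not simulated.

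The 6 members and all lists were chosen with earlier results of these data known. Named genes are the 6 chains, list genes past 0.05 in whole nose, all mesenchymal or other mesenchymal cells, otherwise the 2 largest changes per list in all mesenchymal cells at a mean of at least 5 CPM, and the 5 genes most like Col4a1 and Col4a5 (maximum of at least 50 CPM).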

Additional observations from a re-analysis of the deposited data

Results flagged for a closer look

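The change of Col4a1, Col4a2 and Col4a5 differed between mesenchymal cells with Slc6a13 or Trpm3 and other mesenchymal cells by -1.19, -0.83 and -1.65 on the log2 scale, by the test of the difference itself. The Slc6a13 cells within the gate numbered 48, 41, 8 and 16, and the part of that number in the difference was not tested.

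Col4a1 differed between groups in opposite directions between gates, without overlap of the groups: its log2 change was 0.38 in endothelial cells, against -0.54 in mural cells, -0.49 in glia, -0.18 in keratinocytes and -1.36 in mesenchymal cells with Slc6a13 or Trpm3. Only the last passed the edgeR test, and with 2 markers per gate the endothelial and keratinocyte values turned to -0.26 and 0.17. In endothelial cells 18% of all genes tested were higher in both mutants. In the other gates named, 16.8%, 14.5%, 16.9% and 17.3% were lower in both mutants, in the order given. The difference between endothelial cells and these gates was not tested; against other mesenchymal cells it was 0.55 ± 0.23 (edgeR adjusted p = 0.753).

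Among cells that passed several marker lists and entered no gate, 1 cell of mutant 2 held 17 Col4a3 UMIs, more than the 13, 8 and 10 of the other libraries in all.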

How the results depend on the processing

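Of the alternative values of the main comparisons, 196 were counted as unchanged, 13 as stronger, 0 as weaker, 5 as moved and 3 as reversed. No chain passed the edgeR test in these comparisons, so no tested value could lose a call and be counted as weaker. For single gates, differences between gates included, 324 were unchanged, 9 stronger, 10 weaker, 0 moved and 17 reversed. Unchanged means the same direction and side of the threshold for values with a test. For whole-nose ratios at the same makeup of gates it means only the same direction. For the share of cells it means the same direction and a distance from the main value under the pooled SD of the groups. In all mesenchymal cells no filter on low counts made all 4 chains pass (log2 -0.44, -0.53, -1.14 and -1.82 for Col4a1, Col4a2, Col4a5 and Col4a6), and DESeq2 made Col4a2, Col4a5 and Col4a6 pass (-0.54, -1.15 and -1.83). Leaving out each library gave -0.63 to -0.46 for Col4a2, -1.31 to -1.01 for Col4a5 and -2.17 to -1.54 for Col4a6 there, and -0.88 to -0.52 for Col4a5 in other mesenchymal cells; without control 1, 439 genes passed in all mesenchymal cells and 410 in whole nose, against 2 and 0. Genes passing in all mesenchymal cells numbered 607 without the filter and 59 with DESeq2. Directions turned for Col4a6 in the whole nose without Slc6a13 or Trpm3 cells (-0.16 to 0.014 with libraries left out), for Col4a1 there under the added meningeal list (0.12), and for the share of these cells (-3.51 to 0.38 points).

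In single gates further directions turned, and the cause was not tested. With libraries left out, Col4a5 ranged from -0.58 to 0.082 in mural cells and Col4a6 from -0.11 to 0.17 in keratinocytes. With 2 markers per gate, Col4a1 and Col4a2 were at -0.26 and -0.32 in endothelial cells and 0.17 and 0.48 in keratinocytes, and the differences from other mesenchymal cells were -0.071 and -0.021 (endothelial Col4a1 and Col4a2), -0.97 (mural Col4a5), 0.36 (keratinocyte Col4a1), 0.69 (glial Col4a5) and -6.04 (glial Col4a6). With the highest doublet scores removed, keratinocyte Col4a2 and Col4a6 were at 0.066 and -0.0044, and the differences were 0.017 (keratinocyte Col4a1) and 0.17 (glial Col4a2); with stricter cells keratinocyte Col4a6 was at -5.7e-04. Under the added meningeal list, Col4a5 and Col4a6 lost their call in the gate (adjusted p = 0.109 and 0.0505), with changes of -2.15 and -3.15.

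The keratinocyte share of X-linked chains was 58.4% with 2 markers per gate. Thinned to 1500 UMIs, Col4a1 had a UMI in 62.6% of endothelial cells and 8.56% of keratinocytes, and Col4a5 in 2.56% and 10.1%.

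Libraries of the same replicate number share only a number: their deviations correlated between -0.068 and 0.18 over the cell sets. With the replicate block the whole-nose changes were -0.28, -0.35, -0.62 and -0.76, with no call. In endothelial cells it made Col4a5 and Col4a6 pass (-1.63 and -2.34, edgeR adjusted p = 0.0153 and 0.0211), where 110 of 8352 genes passed, against 26 without the block. Each group has 2 libraries, and the endothelial, mural and glial gates held 21 to 83 cells per library.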
